A study of Rattus norvegicus with 10 samples.

Results

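The respiratory chain genes of the rat lens capsule were taken from the deposited table by name and by chromosome. A row was included when its symbol began with Nduf, Sdha to Sdhd, Uqcr, Cox followed by a digit or Atp5, or was Cyc1 or Cycs, or when the row lay on the mitochondrial genome. The rule found 92 of the 3334 genes in the table, 80 of them nuclear and 12 mitochondrial, and all 92 had enough counts to be tested. Other respiratory chain genes, such as Sdha, Sdhc and Sdhd, were not analysed here.

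RNA of the lens capsule, the membrane around the lens with the epithelial cells attached to it, was sequenced from 10 male Sprague-Dawley rats aged 6 weeks, and the 2 capsules of each animal made 1 sample. In the Hypothermia Group (n = 5) the lenses were taken out after euthanasia and kept for 8 h at 4°C in Hibernate-A, a storage medium, before the capsules were separated. In the Normal Group (n = 5) the capsules were taken straight after euthanasia, with no time in medium. The cold, the medium, the 8 h outside the eye and the later dissection therefore came together and cannot be told apart.

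Oxidative phosphorylation takes place at the inner mitochondrial membrane. Complexes I and II pass electrons from NADH and succinate to coenzyme Q, complex III passes them on to cytochrome c, complex IV hands them to oxygen, and complex V uses the proton gradient that I, III and IV build to make ATP. All the complexes but II mix subunits encoded in the nucleus with subunits encoded in mitochondrial DNA, and assembly factors, which are not part of the finished enzyme, insert the cofactors and join the modules. In the lens, mitochondria are found in the epithelium and the young outer fibre cells and are broken down as fibre cells mature, so most of the lens interior lives on glycolysis.

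The table was a list selected by outcome, in which every gene had a log2FoldChange of at least 0.25 in either direction in the authors' own comparison. In the table the largest p-value of that comparison was 0.0117 (DESeq2), and 3323 of its 3334 rows had an adjusted p under 0.05. The respiratory chain rows in it had thus been chosen for differing, and their number called is read only against the rest of the table. With the authors' size factors as scaling, the quasi-likelihood test of edgeR called 72.9% of the 3222 tested genes. Called here means a Benjamini-Hochberg adjusted p below 0.05 together with a log2FoldChange beyond 0.25 in size. Of the tested genes, 52.3% were called higher and 20.5% lower in the Hypothermia Group, and the median of all log2FoldChanges was 0.36. Listed genes took 9026144 to 12415121 counts of a Hypothermia rat and 4792595 to 8177803 of a Normal rat, which is a part of each library. The authors' size factors ran the other way, from 0.744 to 0.980 and from 1.08 to 1.26. Normalized counts below are counts divided by these factors, and log2FoldChange is the Hypothermia Group over the Normal Group.

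Nuclear regulation of these genes is known to run through a few promoter motifs, so the promoters of the nuclear genes were read for them. The 300 bases from 250 before to 50 after the RefSeq start site (assembly GRCr8) were found on the row's own chromosome for 64 of the 80 nuclear rows. For Cycs, Atp5md and Cox7a2l2 the RefSeq gene lay on another chromosome than the row of the table, and no promoter was read. The motifs searched, on both strands, were GCGCA and GCGC with any 1 base between them for nuclear respiratory factor 1 (NRF1), CCGGAAG for ETS factors such as GABPA, and AAGATGGC for YY1. The NRF1 letters stood in 14 of the 64 promoters (21.9%), against 4.71% of all 27457 rat promoters and 9.40% of those of the tested genes in the table. The ETS letters stood in 18 (28.1%), against 9.22% and 18.1%, and the YY1 letters in 14 (21.9%), against 3.44% and 6.41%. No motif was present in 28 of the 64, and Atp5me, a membrane subunit of complex V, held all 3. Stretches of 7 promoters are shown to let the motifs be seen, 5′ to 3′ on the gene's strand and ending 20 bases past the start site, with the motifs on either strand in capitals. They are those of Ndufa5 (chr4:53971216-53971355, minus strand), Ndufaf8 (chr10:105879788-105879927, plus), Uqcrc1 (chr8:118468103-118468242, plus), Cox5b (chr9:46417717-46417856, plus), Cox15 (chr1:252571452-252571591, minus), Atp5me (chr14:1464660-1464879, plus) and Atp5po (chr11:44657464-44657603, minus), chosen because they hold the motifs in different combinations beside a wide range of log2FoldChanges.
Ndufa5: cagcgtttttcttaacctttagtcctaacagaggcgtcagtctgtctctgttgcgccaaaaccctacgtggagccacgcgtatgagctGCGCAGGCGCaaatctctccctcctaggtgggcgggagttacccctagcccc
Ndufaf8: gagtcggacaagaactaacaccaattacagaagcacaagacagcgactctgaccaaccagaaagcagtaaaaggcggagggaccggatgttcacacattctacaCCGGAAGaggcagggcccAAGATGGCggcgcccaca
Uqcrc1: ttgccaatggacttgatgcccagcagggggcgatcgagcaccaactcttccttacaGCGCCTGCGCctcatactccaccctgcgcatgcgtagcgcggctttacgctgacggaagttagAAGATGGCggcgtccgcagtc
Cox5b: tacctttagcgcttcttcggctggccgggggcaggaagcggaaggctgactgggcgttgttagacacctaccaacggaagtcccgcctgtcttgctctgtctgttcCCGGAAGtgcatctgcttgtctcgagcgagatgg
Cox15: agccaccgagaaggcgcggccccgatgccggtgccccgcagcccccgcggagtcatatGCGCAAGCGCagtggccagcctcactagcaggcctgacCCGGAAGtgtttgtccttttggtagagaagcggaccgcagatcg
Atp5me: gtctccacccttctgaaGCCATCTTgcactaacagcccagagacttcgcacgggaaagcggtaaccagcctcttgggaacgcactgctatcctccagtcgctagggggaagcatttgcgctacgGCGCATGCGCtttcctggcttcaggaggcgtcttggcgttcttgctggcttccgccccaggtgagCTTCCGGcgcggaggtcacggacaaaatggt
Atp5po: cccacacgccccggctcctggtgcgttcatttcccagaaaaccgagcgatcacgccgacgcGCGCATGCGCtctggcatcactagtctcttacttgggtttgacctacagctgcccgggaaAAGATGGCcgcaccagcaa
The Ndufa5, Cox15, Atp5me and Atp5po stretches hold the NRF1 letters as written and Uqcrc1 holds their reverse complement. Cox15, the member with the lowest log2FoldChange (-0.31), had both NRF1 and ETS letters, while Uqcrc1 (0.33) and Atp5po (0.63) had NRF1 and YY1 letters. The median log2FoldChange was 0.57 for the 14 genes with NRF1 letters and 0.62 for the other 50, 0.72 for the 18 with ETS letters and 0.61 for the other 46, and 0.71 for the 14 with YY1 letters and 0.61 for the other 50. A match of letters is a description of the sequence and not a bound site.

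With the authors' size factors, nearly all nuclear genes lay on the higher side in the Hypothermia Group. Of the 80, 79 had a log2FoldChange above 0, where 63.7% of the tested genes did, and Cox15 was the exception in sign. Among other tested genes that share was 93.4% under 600 bases of gene length, 94.5% from 600 to under 1000 and 56.7% for longer genes. The shares called or separated given below were not split by length. Of the 80 nuclear genes, 37 were under 600 bases, 20 from 600 to under 1000, and 23 were 1000 bases or longer. By edgeR with adjustment 71 were called higher and none lower, where 52.3% and 20.5% of the tested genes were. At an unadjusted p under 0.05 all 80 passed, Cox15 among them on the lower side, in a table selected for such genes. DESeq2 called 76, none of them lower, where it called 58.8% of the table higher. The median log2FoldChange was 0.61 (a fold of 1.53), with a range from -0.31 to 1.25 and a median standard error of 0.12. Above 1 lay 5 nuclear genes, Ndufa12, Ndufa5, Cox5b, Ndufb4 and the Uqcrb row on chromosome 1, all called, where 10.3% of the tested genes were called higher with a log2FoldChange above 1. For 66 of the 80 every Hypothermia rat lay above every Normal rat, where 41.9% of the tested genes were separated in that direction. Of the 71 calls, 64 were kept in each of the 10 fits that left out 1 rat, and leaving out 1 rat gave between 64 and 74 calls higher. In a sample of whole tissue, more RNA of these genes per cell and more cells that carry it cannot be told apart.

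The size of the change depended on the scaling, and the direction of the nuclear median reversed with the totals of the listed genes only. Under the authors' factors and the remaining scalings, between 74 and 79 of the 80 nuclear genes were above 0. All scalings but the authors' were computed on the listed rows, which had been selected by outcome. TMM computed on the table moved the median of all tested genes by -0.29, to 0.07, and the median of the nuclear genes moved with it to 0.33, with 76 of 80 above 0, 40 called higher and 1 (Cox15) lower. TMM called 19.7% of the tested genes higher and 34.2% lower. Median-of-ratios and upper-quartile factors gave nuclear medians of 0.30 and 0.29, and scaling by the totals of the listed genes, in which lens crystallins weigh most, gave -0.61, with none of the 92 rows above 0. That scaling called 47 nuclear genes and 4 mitochondrial rows lower and none higher, where it called 74.4% of the tested genes lower. The distance of the nuclear median from the median of all tested genes was between 0.25 and 0.26 under the authors' factors and the 5 other scalings. A scaling moves all genes nearly together, so this distance could hardly change between scalings. In the fits without 1 rat it lay between 0.21 (without Hypothermia rat 5) and 0.29 (without Normal rat 1).

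**Figure D1:**
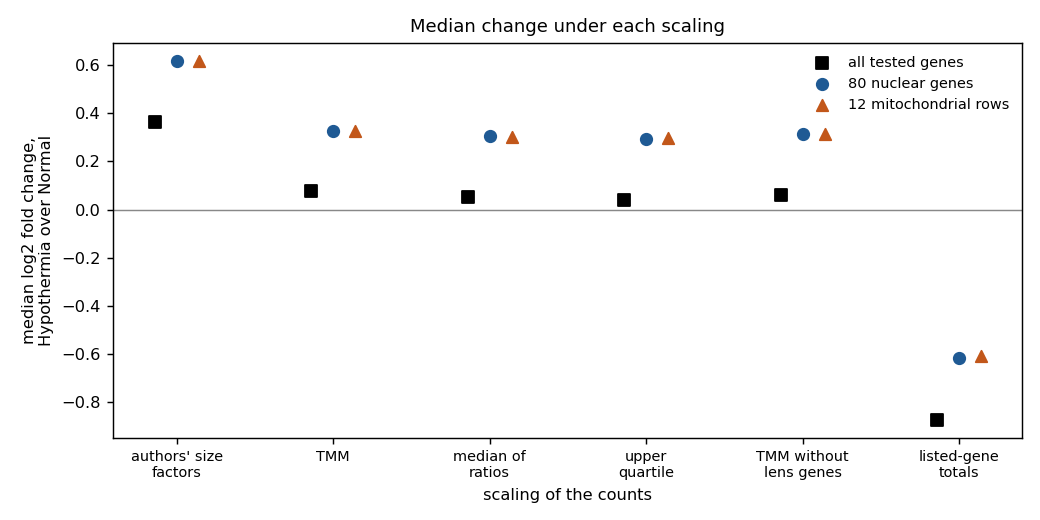
Median log2FoldChange (Hypothermia over Normal, y axis) of all tested genes (squares), the 80 nuclear genes (circles) and the 12 mitochondrial rows (triangles) under 6 scalings (x axis). A scaling moves all genes nearly together, so both sets of members stay above the table's median. All 3 medians lie below 0 with listed-gene totals (nuclear -0.61, all tested -0.87).

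The nuclear subunits of complexes I, III, IV and V had medians between 0.61 and 0.67, while assembly factors had a lower one. Over the 68 nuclear subunits, cytochrome c included, 65 were called higher, with a median of 0.63, where 52.3% of the tested genes were called higher. The medians were 0.63 for 31 complex I subunits, 0.67 for 9 of complex III, 0.63 for 13 of complex IV and 0.61 for 13 of complex V. For complex II only Sdhb was listed, at 0.77. The 11 assembly factors had a median of 0.33, below the 0.36 of all tested genes, and 5 of them were called, all higher. Under TMM the median of the assembly factors was 0.04 and that of the subunits 0.34, with Ndufaf8 the only assembly factor called higher and Cox15 the only one called lower. Of all tested genes, TMM called 19.7% higher and 34.2% lower. The median gene length was 1028 bases for the assembly factors and 615 for the subunits, and log2FoldChange went with length, as given below. These differences between groups of members were not tested.

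**Figure D2:**
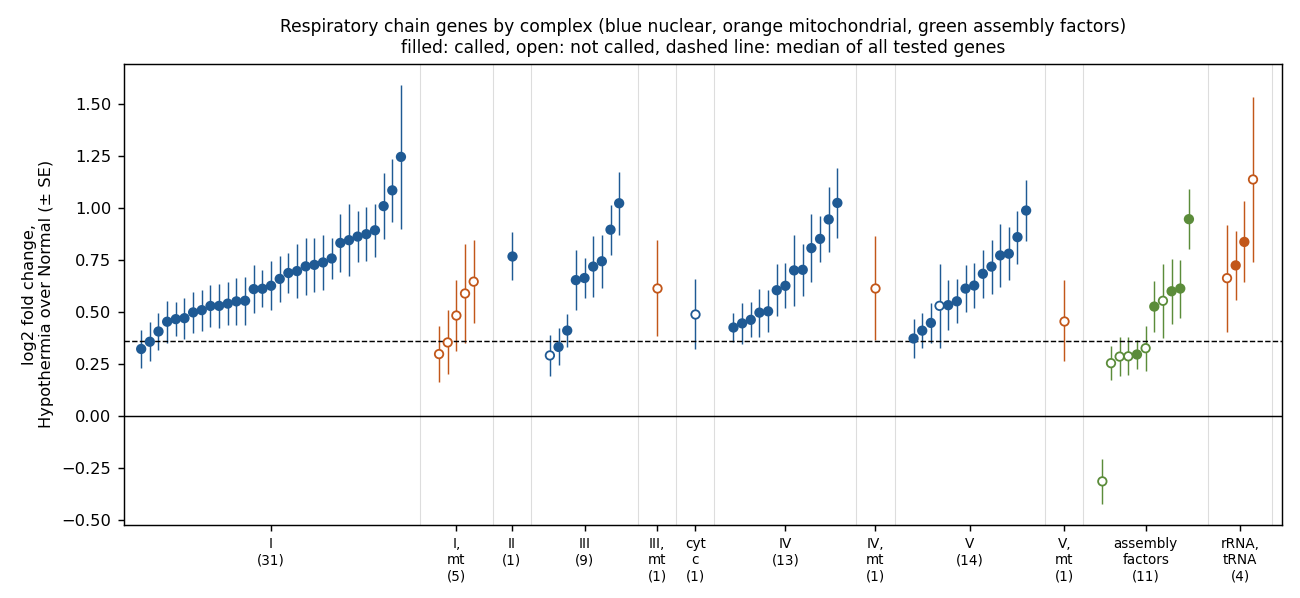
log2FoldChange (Hypothermia over Normal, authors' size factors) with its standard error for each of the 92 rows, sorted within complex I to V, cytochrome c (cyt c), assembly factors and ribosomal or transfer RNA genes, with mitochondrially encoded rows marked mt. Complex V includes the inhibitor Atp5if1. Points run from -0.31 to 1.25, and Cox15 is the only row below 0 at this scaling.

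In complex I, NADH dehydrogenase, all 31 listed nuclear subunits were called higher, with log2FoldChanges from 0.32 to 1.25, and 27 had no overlap between groups. Of the tested genes 52.3% were called higher and 41.9% were separated in that direction. The 4 core subunits listed, Ndufs3, Ndufs7, Ndufs8 and Ndufv2, which hold or surround the iron-sulphur clusters of the peripheral arm, had a median of 0.50. The 27 accessory subunits, which surround the core, had a median of 0.69. Genes named Ndufb, which belong to the membrane arm, did not overlap between groups for 10 of 10 (median 0.69), and 11 genes named Ndufa had a median of 0.73. TMM called 17 of the 31 higher, where it called 19.7% of the tested genes higher.

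Ndufa5 (chr4:51590413-51598771 in Rnor_6.0), an accessory subunit of the peripheral arm, had one of the larger changes of the complex. Its normalized counts were 1255, 1081, 1739.8, 1376 and 1686 in Hypothermia rats 1 to 5 and 804, 734, 524, 617 and 682 in Normal rats 1 to 5. The lowest Hypothermia rat lay above the highest Normal rat (log2FoldChange 1.09, standard error 0.15, adjusted p = 0.00459, edgeR). Ndufb4 (chr11:65960277-65966898), an accessory subunit of the membrane arm, had 1865, 1579.6, 2499, 1950.4 and 2578 against 1313, 1146, 852, 904 and 981. All Hypothermia rats were again above all Normal rats, with rats 3 and 5 highest (log2FoldChange 1.01, standard error 0.16, adjusted p = 0.00487, edgeR).

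Ndufa12 (chr7:35125424-35167406), an accessory subunit next to the NADH-oxidizing module, had the largest log2FoldChange of all members, and it rested much on 1 animal. Its normalized counts were 154, 82.6, 357, 139.8 and 179 in the Hypothermia Group and 86.9, 84.3, 50.1, 99.2 and 62.2 in the Normal Group. Hypothermia rat 3 stood far above the rest and rat 2 fell within the Normal range, so the groups overlapped (log2FoldChange 1.25, standard error 0.35, adjusted p = 0.0357, edgeR). Leaving out 1 rat at a time removed the call in 8 of 10 fits, and without Hypothermia rat 3 the log2FoldChange was 0.86. Ndufa10l1 (chr9:99617052-99651813), a relative of the accessory subunit Ndufa10, was at the low end, with 676, 549.9, 651, 704 and 735 against 602, 533, 531, 471 and 512. Its groups overlapped (log2FoldChange 0.32, standard error 0.09, adjusted p = 0.0373, edgeR), 8 of 10 such fits removed its call, and reads shared with Ndufa10 were not tested.

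The core subunits had a lower median log2FoldChange than the accessory subunits, a difference that was not tested. They were also longer, with a median gene length of 935 bases against 629 for the accessory subunits. Ndufs7 (chr7:12318757-12326392), which holds the last iron-sulphur cluster before coenzyme Q, had 575, 563, 670.3, 613 and 644 in the Hypothermia Group and 472, 480.2, 396, 410.3 and 459 in the Normal Group. The 5 values of each group stayed close together and apart from the other group (log2FoldChange 0.47, standard error 0.08, adjusted p = 0.00586, edgeR). Ndufv2 (chr9:113875703-113900190), an iron-sulphur subunit of the NADH-oxidizing module, had 1084, 1034, 1243, 1149 and 1395 against 908, 857, 647, 653 and 755. Hypothermia rat 5 was highest and the groups did not overlap (log2FoldChange 0.63, standard error 0.12, adjusted p = 0.00728, edgeR). Ndufv1 and Ndufs1, the other core subunits of that module, were not analysed here.

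Complex II, succinate dehydrogenase, also a step of the tricarboxylic acid cycle, was represented by Sdhb (chr5:159484370-159505064), its iron-sulphur subunit. The normalized counts were 1619, 1565, 2074, 1759.6 and 2092 in Hypothermia rats and 1284, 1073, 944, 965 and 1071 in Normal rats. No Hypothermia rat was as low as any Normal rat (log2FoldChange 0.77, standard error 0.11, adjusted p = 0.00459, edgeR). Its assembly factor Sdhaf4, which acts on the Sdha subunit, did not pass (log2FoldChange 0.29, standard error 0.09, adjusted p = 0.0549, edgeR), though its groups, 279.7, 280.2, 287, 267 and 269 and 236, 187, 254, 226 and 231, did not overlap. Under TMM the log2FoldChange of Sdhaf4 was -0.0002.

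In complex III, the cytochrome bc1 complex, the core subunits had lower log2FoldChanges than the small accessory subunits. Their median gene length was 1195 bases against 527.5 for the accessory rows, and the difference was not tested. The 3 listed nuclear core subunits, Uqcrc1, Cyc1 and Uqcrfs1, had log2FoldChanges of 0.33, 0.41 and 0.29, near the table's median of 0.36. Uqcrc1 and Cyc1 were called, Uqcrc1 in only 3 of the 10 fits without 1 rat, and TMM called none of the 3. The 6 rows of accessory subunits lay between 0.66 and 1.02 (median 0.73), were all called, 5 of them also under TMM, and did not overlap between groups. Of the tested genes 52.3% were called higher, 19.7% under TMM, and 41.9% were separated in that direction. Cyc1 (chr7:117409576-117411953), cytochrome c1, had 1104, 1105, 1199, 1292 and 1248 against 911, 969, 913, 776 and 899.8. Its groups were separate (log2FoldChange 0.41, standard error 0.08, adjusted p = 0.00841, edgeR). Uqcrfs1 (chr17:35677984-35682259), the Rieske iron-sulphur protein, had 1242, 1121, 1534, 1282 and 1176 against 1194, 1063, 985, 982 and 962. Hypothermia rats 2 and 5 lay within the Normal range, and the gene was not called (log2FoldChange 0.29, standard error 0.10, adjusted p = 0.0732, edgeR). Uqcrh (chr5:134919044-134927235), the hinge protein that docks cytochrome c1, had 1341, 1215, 1707, 1438 and 1988 against 1030.4, 909.7, 906, 854 and 883, with no overlap (log2FoldChange 0.75, standard error 0.13, adjusted p = 0.00562, edgeR).

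Uqcrb, the ubiquinone-binding subunit, was listed as 2 rows. The row on chromosome 7 (chr7:71264514-71269869) had a log2FoldChange of 0.72, and the row on chromosome 1 (chr1:94718402-94718876) had 1.02. The chromosome 1 row is as long as its span on the genome, so its model has no intron, and its normalized counts were 519.7, 481, 728, 700.2 and 856 against 316, 357, 329, 274 and 338. The groups were separate in both rows (log2FoldChange 1.02, standard error 0.15, adjusted p = 0.00459 for chromosome 1, edgeR). Rows with no intron in the model were also those of Cycs, Atp5md, Cox14 and the Cox6b1 row on chromosome 2, 5 of the 80 in all. Reads that such rows may share with a spliced copy elsewhere were not tested, and their values are uncertain to that extent.

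Cycs, the mobile electron carrier cytochrome c, was listed only as a row on chromosome 18 (chr18:62476383-62476700). The RefSeq gene of that name lies on chromosome 4, and this row has no intron in its model. Its values may therefore not be those of the cytochrome c gene, which was not tested. The row's normalized counts were low, 145, 115, 173, 148 and 121 in the Hypothermia Group and 123, 101, 106, 74.4 and 94.3 in the Normal Group. Hypothermia rats 2 and 5 lay within the Normal range, and the row was not called (log2FoldChange 0.49, standard error 0.17, adjusted p = 0.0734, edgeR).

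In complex IV, cytochrome c oxidase, all 13 nuclear subunit rows were called higher, from 0.43 to 1.03, and none overlapped between groups. TMM called 7 of them higher. Of the tested genes 52.3% were called higher, 19.7% under TMM, and 41.9% were separated in that direction. Cox5b (chr9:43259709-43262040), a zinc-binding subunit on the matrix side, was at the top, with 1578, 1362, 1633, 1235 and 2265 against 812, 1018, 766, 639.8 and 726. Hypothermia rat 5 was the highest by a wide margin (log2FoldChange 1.03, standard error 0.17, adjusted p = 0.00528, edgeR). Cox7c, a small membrane subunit, had 2481, 2281, 3527, 3024 and 4118 against 1778, 1769, 1463, 1415 and 1579.9, again with rat 5 highest (log2FoldChange 0.95, standard error 0.15, adjusted p = 0.00506, edgeR).

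Cox4i1 (chr19:54245950-54252225), the common form of the regulatory subunit that binds ATP, had 2897, 2424, 3155, 2527 and 3314 against 2209.8, 2082, 1873, 1922 and 2000.0. The groups were apart (log2FoldChange 0.51, standard error 0.10, adjusted p = 0.0089, edgeR). Ndufa4, named for complex I but now placed in complex IV, had 1706, 1614, 1884, 1764 and 1795 against 1438, 1243, 1357, 1107 and 1206 (log2FoldChange 0.46, standard error 0.08, adjusted p = 0.0064, edgeR). Cox8a, the smallest change of the 13, was also the most even, with 2063, 2089, 2334, 2246 and 2319 against 1619.7, 1738, 1619.9, 1561 and 1679. Its standard error of 0.07 was the smallest among the nuclear subunits (log2FoldChange 0.43). Cox6b1 was listed on chromosomes 1 and 2, and both rows had a log2FoldChange of 0.70. On chromosome 2 Normal rat 1 reached 152.6, just under the lowest Hypothermia rat at 153.1. The alternative isoforms Cox4i2 and Ndufa4l2 were not analysed here.

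In complex V, ATP synthase, 12 of 13 subunits were called higher, with a median of 0.61 and a range from 0.37 to 0.99. TMM called 8 of the 13 higher, Atp5f1b not among them. Of the tested genes 52.3% were called higher, and 19.7% under TMM. The 4 subunits of the catalytic F1 head and central stalk had a median of 0.54 and the 9 of the membrane sector and peripheral stalk 0.63. The median gene lengths were 2120.5 and 561 bases, and the difference was not tested. Atp5f1b (chr7:2504695-2511749), the catalytic beta subunit, had the highest level per gene length of the nuclear members when averaged over all 10 rats, though Atp5f1e stood above it in the Hypothermia Group, at 435. Atp5f1b had an FPKM of 397 ± 48.7 in the Hypothermia Group and 274 ± 31.3 in the Normal Group (SD, n = 5). Its normalized counts were 11101, 9958, 13123, 11152 and 13291 against 9188, 8758, 6937, 7437 and 8149, with no overlap (log2FoldChange 0.53, standard error 0.12, adjusted p = 0.0134, edgeR). Atp5f1e, the small epsilon subunit of the central stalk, had the largest change of the complex, 2339, 2029, 3183, 2773 and 3242 against 1587, 1564, 1139, 1189 and 1352 (log2FoldChange 0.99, standard error 0.15, adjusted p = 0.00459, edgeR). Atp5f1c, the gamma subunit that turns within the head, had the smallest, 2122, 1826, 2489, 2190.3 and 2148 against 1834, 1808, 1575, 1519 and 1576. Hypothermia rat 2 lay just under Normal rat 1 (log2FoldChange 0.37, standard error 0.09, adjusted p = 0.0228, edgeR), and 4 of the 10 fits without 1 rat removed this call.

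The c-ring genes Atp5mc1 and Atp5mc2 had log2FoldChanges of 0.45 and 0.41, the peripheral stalk genes Atp5po, Atp5pd and Atp5pf had 0.63, 0.61 and 0.69, and the membrane subunits Atp5me, Atp5mf and Atp5mg had 0.78, 0.77 and 0.72. All 8 were called by edgeR. Atp5md, the subunit not called (log2FoldChange 0.53, standard error 0.20, adjusted p = 0.122, edgeR), is one of the rows with no intron and had between 40.7 and 117 normalized counts. Atp5if1 (chr5:150719569-150723321) encodes the inhibitor that stops the enzyme from hydrolysing ATP when the proton gradient falls. It had 1877, 1838, 2371, 2324 and 2784 against 1408, 1384, 1108, 1158 and 1101, with rat 5 highest and no overlap (log2FoldChange 0.86, standard error 0.13, adjusted p = 0.00459, edgeR).

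The assembly factors did not move as a block. With the authors' size factors 5 of the 11 were called higher, where 52.3% of the tested genes were. Of the 4 for complex I, Ndufaf3, Ndufaf5 and Ndufaf8 were called higher and Ndufaf6 was not, at 0.60, 0.53, 0.95 and 0.56. Ndufaf8 (chr10:109278712-109280863), which partners and stabilizes Ndufaf5, had 459, 416, 518, 511 and 688 against 321, 301, 231, 229.5 and 261, without overlap (log2FoldChange 0.95, standard error 0.14, adjusted p = 0.00459, edgeR). Ndufaf3 kept its call in 5 of the 10 fits without 1 rat. Of the 6 for complex IV, Cox17, a copper chaperone, and Cox14, which binds newly made Cox1 protein, were called higher (0.61 and 0.30). Under TMM Cox17 and Cox14 were at 0.33 and 0.0098, and neither was called. Cox16, Cox19 and Cox20 were not called (0.29, 0.26 and 0.33), and under TMM Cox16 and Cox19 were below 0.

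Cox15 (chr1:263494852-263511505), which makes the heme A cofactor of complex IV, was the only member with a negative log2FoldChange. The counts were low, 145, 176, 152, 172 and 155 in the Hypothermia Group and 166, 219, 215, 198 and 195 in the Normal Group. Hypothermia rats 2 and 4 lay above Normal rat 1 and below the other Normal rats. The gene was not called with the authors' size factors (log2FoldChange -0.31, standard error 0.11, adjusted p = 0.0794, edgeR) and was called lower under TMM (log2FoldChange -0.60), the direction it also had under the other scalings.

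The 12 mitochondrial rows had a median log2FoldChange of 0.62, beside 0.61 for the nuclear genes, and without Hypothermia rat 1 these medians were 0.42 and 0.65. The difference was not tested, and the spread between rats was wider in the mitochondrial rows. All 12 were above 0 with the authors' size factors and with TMM, 11 with median-of-ratios or upper-quartile factors, and none with listed-gene totals. Only 2 were called by edgeR with adjustment, where 52.3% of the tested genes were called higher. DESeq2 called 10 of them, where it called 58.8% of the table higher. With TMM edgeR called none, where it called 19.7% of the tested genes higher. All 12 passed an unadjusted p under 0.05, in a table selected for such genes. The median standard error was 0.20, against 0.12 for the nuclear genes, and within groups the median coefficient of variation was 28.9% in the Hypothermia Group and 20.4% in the Normal Group, against 13.2% and 11.6% for the nuclear genes. The groups did not overlap for 3 of the 12 rows, all higher in the Hypothermia Group, where 41.9% of the tested genes were separated in that direction.

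By FPKM averaged over the 10 rats, 7 of the 8 mitochondrial protein-coding rows, all but Mt-co2, stood above every other member per gene length. Mt-atp6 (chrMT:7919-8599), a membrane subunit of complex V, had an FPKM of 4503 ± 1140.0 in the Hypothermia Group and 3275 ± 465 in the Normal Group (SD, n = 5). Mt-cyb (chrMT:14136-15278), cytochrome b of complex III, had 3279 ± 976 in the Hypothermia Group and 2138 ± 453 in the Normal Group. The normalized counts of Mt-cyb were 93525, 52284, 63661, 45986 and 56438 against 40711, 30346, 33945, 49618 and 48735. Hypothermia rat 1 stood above all others, and Hypothermia rat 4 lay within the Normal range (log2FoldChange 0.62, standard error 0.23, adjusted p = 0.109, edgeR). Mt-atp6 had 72759, 41877, 52328, 41419 and 46819 against 38491, 32863, 30681, 43556 and 39985, with Normal rat 4 above Hypothermia rats 2 and 4 (log2FoldChange 0.46, standard error 0.19, adjusted p = 0.189, edgeR). Mt-co2 (chrMT:7006-7689), the copper-binding subunit of complex IV that takes electrons from cytochrome c, had 5895, 2731, 4076, 2876 and 3574 against 3181, 1853, 1573, 2999 and 2874. Here too the groups overlapped (log2FoldChange 0.62, standard error 0.25, adjusted p = 0.17, edgeR).

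Of the mitochondrially encoded complex I subunits, all of the membrane arm, 5 were listed and none was called. Mt-nd2 (chrMT:3904-4942) had 52074, 42225, 40829.6, 41082 and 40203 against 35038, 34131, 37157, 35652 and 33849.9. Its groups did not overlap, and yet its log2FoldChange was the smallest of the 12 (log2FoldChange 0.30, standard error 0.14, adjusted p = 0.252, edgeR). Mt-nd3 (chrMT:9451-9798) had 8098, 4636, 5532, 4104 and 5149.6 against 4054, 2633, 2713, 4135 and 4028, with Hypothermia rat 4 below Normal rat 4 (log2FoldChange 0.65, standard error 0.20, adjusted p = 0.0516, edgeR). Mt-nd1, Mt-nd4l and Mt-nd6, the last read from the minus strand, had log2FoldChanges of 0.36, 0.59 and 0.48, and their groups overlapped. The library kit does not mark strand, so reads from Mt-nd6 and from transcripts of the opposite strand cannot be told apart.

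The rows of mitochondrial RNA genes had larger log2FoldChanges than the protein-coding rows, with medians of 0.78 for 4 and 0.54 for 8, and the 2 calls were among them. AY172581.24 (chrMT:1094-2664), a ribosomal RNA, had 6575, 4267, 4150.0, 4316 and 4368 against 3189, 2475, 2135, 3538 and 2979, without overlap (log2FoldChange 0.73, standard error 0.17, adjusted p = 0.0145, edgeR). AY172581.9 (chrMT:68-1025), the other ribosomal RNA, was not called (log2FoldChange 0.66, standard error 0.26, adjusted p = 0.138, edgeR), and its groups overlapped. AY172581.2 (chrMT:15348-15415, minus strand), a transfer RNA of 68 bases, had 801, 444, 565, 376 and 450.1 against 351, 289.6, 224, 298 and 310.3, without overlap (log2FoldChange 0.84, standard error 0.19, adjusted p = 0.0167, edgeR). AY172581.18 (chrMT:5081-5152, minus strand), a transfer RNA of 72 bases, had the largest log2FoldChange of the 12 but only 117, 70, 80.3, 35.7 and 90 against 58.3, 28.6, 11.9, 46.4 and 33 normalized counts, and it was not called (log2FoldChange 1.14, standard error 0.40, adjusted p = 0.0848, edgeR). Both transfer RNAs are shorter than a read of these libraries, so a read counted for them also covers neighbouring sequence.

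**Figure D3:**
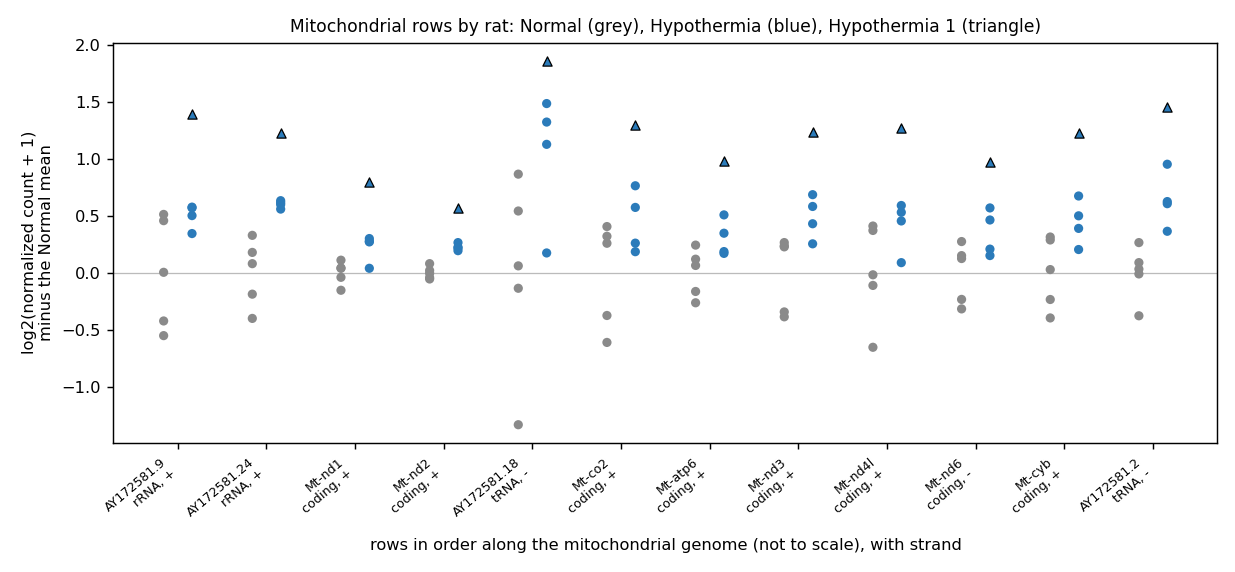
Each rat's log2(normalized count + 1) minus the Normal mean (y axis, authors' size factors) for the 12 mitochondrial rows in genome order (x axis), Normal rats in grey and Hypothermia rats in blue. Hypothermia rat 1 (triangles) is the highest of its group in all 12 rows, and the groups overlap in 9.

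Rats did not rank alike in the nuclear and the mitochondrial genes. Hypothermia rat 1 was the highest of its group in all 12 mitochondrial rows and in none of the 80 nuclear genes, in which rat 5 was highest for 43 and rat 3 for 32. The median difference from the Normal mean, on the log2 scale, was 0.47, 0.40, 0.79, 0.63 and 0.79 for the nuclear genes of Hypothermia rats 1 to 5 and 1.23, 0.41, 0.57, 0.21 and 0.57 for the mitochondrial rows. In Normal rats 1 to 5 it was 0.19, 0.12, -0.10, -0.13 and -0.05 for the nuclear genes and 0.12, -0.21, -0.33, 0.29 and 0.13 for the mitochondrial rows. The groups were apart in the nuclear median and overlapped in the mitochondrial one.

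The ratio of summed mitochondrial to summed nuclear normalized counts does not depend on the scaling of a rat. It was 3.34, 2.27, 1.91, 1.79 and 1.76 in Hypothermia rats 1 to 5, with a mean of 2.21 ± 0.66 (SD, n = 5). In Normal rats 1 to 5 it was 2.22, 1.93, 2.36, 3.04 and 2.71, with a mean of 2.45 ± 0.43 (SD, n = 5). Of the Hypothermia rats, 3 lay below all Normal rats and 1 above them, so the groups overlapped on both sides. The deposited list holds 12 mitochondrial rows, so the ratio covers these rows and not the whole genome.

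**Figure D4:**
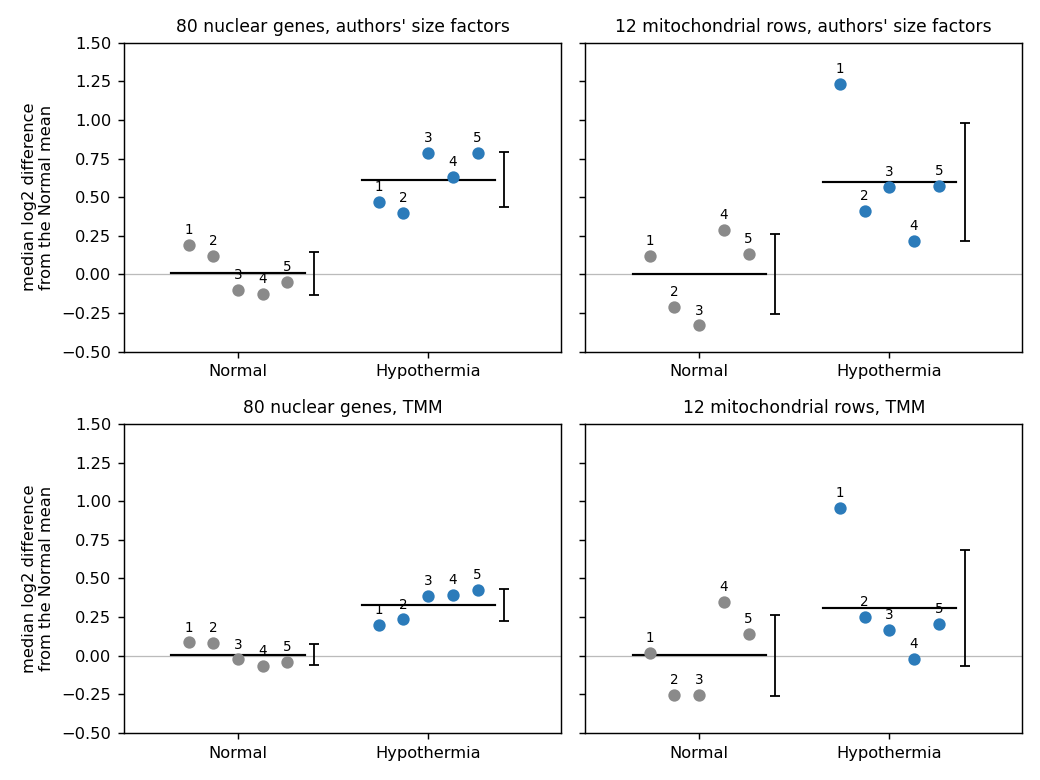
Median over the 80 nuclear genes (left) and the 12 mitochondrial rows (right) of each rat's log2(normalized count + 1) minus the Normal mean, with the authors' size factors (top) and TMM (bottom); numbers are rats, lines group means and bars SD (n = 5). Hypothermia rats lie above Normal rats for the nuclear genes under both scalings, and the groups overlap for the mitochondrial rows.

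Lens fibre genes differed between the groups in the same direction as the nuclear respiratory genes. Crystallins, Mip, Lim2, Bfsp1 and Bfsp2 took 61.9, 58.5, 66.5, 61.3 and 70.2% of the listed counts in Hypothermia rats 1 to 5 and 52.3, 42.3, 22.3, 31.3 and 38.6% in Normal rats 1 to 5. The Hypothermia rats with the highest shares, 5 and 3, were also those with the highest nuclear respiratory medians, and so were Normal rats 1 and 2. Hypothermia rats 5 and 3 also had the lowest size factors of all, 0.744 and 0.797. Of 22 lens fibre markers, 19 were listed and all 19 were called higher, with a median log2FoldChange of 2.16. Their summed normalized counts lay at 5149730 to 11053400 in Hypothermia rats and at 746463 to 3627720 in Normal rats. The part of fibre cells or their RNA in the respiratory chain values was not tested.

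Of 8 lens epithelium markers, 3 were listed, Pitx3 called higher (0.34), Pax6 called lower (-0.26) and Gja1 not called (-0.43), at 23337 to 28178 summed normalized counts in the Hypothermia Group and 29146 to 34953 in the Normal Group. The calls of Pax6 and Pitx3 were lost in 9 and 2 of the 10 fits without 1 rat. Under TMM Pitx3 was not called (0.05), and Pax6 and Gja1 were called lower. No marker of photoreceptors, erythroid cells or immune cells was listed, and those genes were not analysed here. Of 9 striated muscle markers, only Ckm was listed. It was called higher (1.69), with 73.2 to 171 normalized counts in the Hypothermia Group and 11.1 to 72.1 in the Normal Group. The 5 listed of 9 pigment epithelium markers summed to 162 to 228 normalized counts against 327 to 506, and Pmel was called lower (-1.77). Tagln of smooth muscle (-1.52), Vwf of endothelium (-0.61) and Col1a1 of fibroblasts (-2.63) were each the only listed marker of their list and were not called. The part of these cell types in the respiratory chain values was not tested.

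The log2FoldChange went with gene length, in the members as in the rest of the table. By the gene length given in the table, 37 of the nuclear genes were under 600 bases, with a median log2FoldChange of 0.74, 20 were from 600 to under 1000 bases, with 0.62, and 23 were 1000 bases or longer, with 0.47. The other tested genes had medians of 0.70 (211 genes), 0.61 (289 genes) and 0.30 (2630 genes) in the same classes. Above 0 were 93.4%, 94.5% and 56.7% of them. The medians of the members were thus 0.04, 0.01 and 0.17 above those of other genes in their length class. Spearman's rho of log2FoldChange with length was -0.44 over the 80 nuclear genes and -0.42 over the 3130 other tested genes, which come from the same 10 libraries and are not independent. The part of length, also in the differences between groups of members, was not tested further, and RNA quality of each rat was not analysed here.

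**Figure D5:**
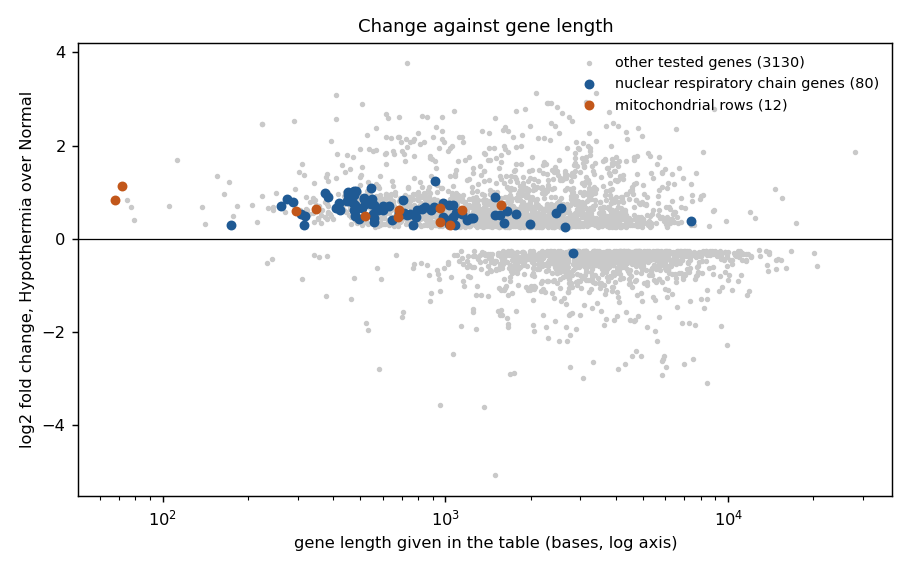
log2FoldChange (Hypothermia over Normal, authors' size factors, y axis) against gene length in bases (log x axis) for 80 nuclear genes (blue), 12 mitochondrial rows (orange) and 3130 other tested genes (grey). The empty band around 0 comes from the selection of the table, and most short genes, members or not, lie above 0 at this scaling.

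Genes around the pathway, taken from lists of names, were called higher more often than lower with the authors' size factors, and not with TMM. Leaving out Atp5md, itself a member, 25 of them were listed, 18 were called higher and 1 lower by edgeR, where the table had 52.3% and 20.5%. TMM called 2 higher (Uqcc2 and Pdha1) and 3 lower (Esrrg, Ppargc1a and Epas1), where it called 19.7% of the tested genes higher and 34.2% lower. The balance of the whole table thus turned with the scaling too. With the authors' size factors, calls held in all 10 fits without 1 rat for 7 of the 19 called genes. Among complex I assembly genes outside the naming rule, Timmdc1 (0.39), Tmem126a (0.54), Lyrm2 (0.44) and Dmac2 (0.30) were called higher, 4 of 5 listed. Both listed complex III assembly genes were called higher, Uqcc2 at 0.78 and Uqcc3 at 0.35. For complex IV 6 of 8 were called higher, among them Higd2a (0.51) and Coa5 (0.48), or 4 of 6 without Fam162a and Pnkd, which are not established assembly factors and were set aside after their values were seen. Coq5 and Coq9, of 3 listed genes of coenzyme Q synthesis, were called higher (both 0.35). Of 19 tricarboxylic acid cycle and pyruvate dehydrogenase genes, Pdha1 (0.88), Fh (0.36), Mdh2 (0.33) and Pdhx (0.30) were listed and called higher.

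The few listed regulators had negative log2FoldChanges. Of 13 nuclear regulators of respiratory genes, 3 were listed. Esrrg, an orphan nuclear receptor that acts on mitochondrial genes, was called lower, with 52.7 to 102 normalized counts (median 83.6) in the Hypothermia Group and 105 to 162 (median 135) in the Normal Group. The groups did not overlap (log2FoldChange -0.67, standard error 0.20, adjusted p = 0.0419, edgeR), and 7 of the 10 fits without 1 rat removed the call. Ppargc1a, the coactivator PGC-1 alpha, was not called (-0.87, adjusted p = 0.0812, edgeR), at 25.1 to 51.8 against 48.3 to 110 normalized counts. Epas1, the hypoxia-inducible factor HIF-2 alpha, was not called either (-1.16, adjusted p = 0.0756, edgeR), and 1 Hypothermia rat at 317 lay within the Normal range of 284 to 470. All 3 were called lower under TMM. Of 23 genes that transcribe, translate or copy mitochondrial DNA, none was listed, and they were not analysed here.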

How the data were processed

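RNA-seq of 10 lens capsule samples was analysed. The submitters' processing notes name HISAT2 2.0.5, featureCounts 1.5.0-p3 and DESeq2 1.16.1 with the build Rnor_6.0, and the annotation release is not given in the sources used here. The authors deposited whole read counts per gene for each rat, FPKM values made from those counts and the gene length, and each group's mean of normalized counts (a signal in units of counts). The deposited log2 fold changes and p-values of the authors' own comparison were read only to see how the table had been limited. All its changes were at least 0.25 in size, and 3323 of its 3334 rows had an adjusted p under 0.05 (DESeq2). RNA samples were selected for sequencing by a minimum integrity number.

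The size factors were recovered by least squares from the group means, with a largest relative error of 9.2e-10. The count model was edgeR 4.0.16 under R 4.3.3, with filterByExpr, robust glmQLFit and glmQLFTest on all 10 rats by group, and p-values were adjusted by Benjamini-Hochberg over the number of expressed genes the study states. The thresholds were 0.05 for the adjusted p and 0.25 for the size of the log2 fold change. A standard error is the log2 fold change over the root of F. Medians over members have no test. A pseudocount of 1 was added to normalized counts before taking logarithms. The fit was tested on simulated counts.

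The members and lists were chosen with earlier results of these data known. Members were named by rule: every mitochondrial row, the highest, the lowest and the most abundant nuclear subunit of each complex, members above 1 in log2 fold change or opposite in sign to most, assembly factors, and a few core genes. Ndufs7, Ndufv2, Uqcrc1, Sdhaf4, Atp5md and the further subunits of complexes IV and V given in the text were chosen after their values were seen. Alternatives were TMM with and without lens genes, factors by median of ratios or upper quartile, totals of the listed genes, adjustment over the tested genes alone or with TMM, DESeq2 1.42.0, no filter, a mean normalized count of at least 50, glmQLFit with robust = FALSE, a block for the replicate number, and each rat left out in turn. Promoters came from RefSeq (GRCr8). No part of the proteome was analysed here.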

Additional observations from a re-analysis of the deposited data

Results flagged for a closer look

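Among 92 groups of 5 rats tested for a rat far from the others by Dixon's criterion, 6 were marked, where chance marks about 1 in 20. Hypothermia rat 1 was far above its group in 4 mitochondrial rows. Its normalized count was 6575 for AY172581.24, against 4150 to 4368 in the other 4 rats, and 3926 for AY172581.9, against 1894 to 2224. It was 40979 for Mt-nd1, against 24309 to 29123, and 52074 for Mt-nd2, against 40203 to 42225. The same rat was the lowest of its group for Ndufaf5, an assembly factor of complex I, at 130 against 163 to 176. Normal rat 2 was highest for Cox14, an assembly factor of complex IV, at 497 against 446 to 460.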

How the results depend on the processing

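The number of respiratory chain rows called, 73 of 92, became 41 with TMM, 40 with median-of-ratios factors, 37 with upper-quartile factors and 41 with TMM without the lens genes, Cox15 being called lower in each. In the same order, these scalings called 1733, 1702, 1652 and 1703 of the 3220 genes tested, in either direction. The authors' factors called 2348 of 3222. The median log2FoldChange of the nuclear subunits, 0.63, was 0.34, 0.32, 0.31 and 0.33. It was also 0.34 with TMM and adjustment over the tested genes. With listed-gene totals it was -0.60 and that of the mitochondrial rows -0.61, and 40 of the 41 named members changed sign: AY172581.18 -0.027, Ndufa12 -0.045, Ndufa5 -0.15, Ndufb4 -0.23, Cox5b -0.24, Atp5f1e -0.25, Uqcrb (chromosome 1) -0.25, Ndufaf8 -0.29, Cox7c -0.32, AY172581.2 -0.36, Atp5if1 -0.38, Sdhb -0.46, AY172581.24 -0.48, Uqcrh -0.52, AY172581.9 -0.56, Mt-nd3 -0.57, Mt-co2 -0.59, Cox17 -0.60, Mt-cyb -0.63, Ndufaf3 -0.63, Ndufaf6 -0.67, Mt-nd4l -0.67, Ndufaf5 -0.69, Atp5f1b -0.70, Cycs -0.73, Mt-nd6 -0.74, Cox4i1 -0.75, Ndufa4 -0.77, Mt-atp6 -0.78, Cox8a -0.82, Cyc1 -0.82, Atp5f1c -0.86, Mt-nd1 -0.88, Cox20 -0.90, Ndufa10l1 -0.91, Uqcrfs1 -0.93, Mt-nd2 -0.94, Cox14 -0.94, Cox16 -0.95 and Cox19 -1.001. Cox15 was negative under every scaling. Under the other scalings 5 of the 41 named members changed sign by small amounts. Members outside the 41 were not followed here, and Sdhaf4, 1 of those, was at -0.0002 with TMM. Cox19 was at -0.0368 with TMM under either adjustment, -0.0609 with median-of-ratios factors, -0.0699 with upper-quartile factors and -0.0513 with TMM without the lens genes. Cox16 was at -0.000933, -0.0235, -0.0342 and -0.0139 in the same order. Cox14 was at -0.0137, -0.0234 and -0.0049, Uqcrfs1 at -0.0182, -0.0288 and -0.00811, and Mt-nd2 at -0.0112, -0.0209 and -0.00186 with median-of-ratios factors, upper-quartile factors and TMM without the lens genes. Each of these shifts follows from the scaling itself, which moves all genes together. Of all tested genes 2348 were called, and fits without 1 rat called between 1372 and 2384. The count was lower by over 1.5 times without Hypothermia rat 3 (1496), Normal rat 4 (1372) or Normal rat 5 (1511). Of the respiratory chain rows, all the fits without 1 rat called between 66 and 77. Both groups number their rats 1 to 5, but same-numbered rats are different animals, and the correlations of their deviations from the group means were between -0.17 and 0.23, so the numbers share only a name. With the replicate number as a block 942 genes of the table and 50 respiratory chain rows were called, for which the block leaves fewer degrees of freedom. DESeq2, other filters on low counts, robust = FALSE and adjustment over the tested genes changed no direction. The counts of the listed genes are a part of each library, so the depth of a rat is known for these genes only.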
